A study of Mus musculus with 4 samples.

Results

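Complement and coagulation are the main proteolytic cascades of blood plasma, and the liver makes most of their proteins. The set described here held 34 genes of 21887 protein-coding genes, 16 of complement and 18 of coagulation, taken from a list of named genes and not from their peaks. It was examined for chromatin peaks of MafG, a small MAF protein that binds DNA as a dimer with partners such as NRF2 and BACH1 and has no transactivation domain of its own. The data came from chromatin immunoprecipitation with sequencing (ChIP-seq) of livers of C57BL6/J mice. There were 2 libraries from livers labelled Ad BLRP MAFG, which overexpressed MafG carrying the BLRP tag, and 2 from livers labelled Ad BLRP Control; all 4 used an antibody to the tag. The labels give neither age nor sex. Because tagged MafG was present only in excess, sites that native MafG leaves free may be among the peaks. The series title frames the study around the repression of bile acid synthesis and metabolism, and complement and coagulation genes are not named in it.

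In the complement cascade, lectins such as the mannose-binding lectins recognise a surface and activate serine proteases, which cleave further components until C3 is cut and the membrane attack complex assembles. In coagulation, chains of serine proteases lead to thrombin, which turns fibrinogen into fibrin, and plasmin later dissolves the clot. Both cascades are held back by plasma inhibitors and cofactors many of which the liver makes as well.

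The data analysed were a list of 68763 peaks, found on 1 collection of 20406492 BLRP-MafG tags over 1 collection of control tags, for which the authors' scaling implied 1.72e+07 tags. Whether 1 or 2 libraries stand behind a collection is not stated, and the list has no value per library, so no difference between animals was tested and no replicate error can be given. Peak height is given as the normalized tag count, which the authors scaled to 10000000 tags. Intervals of peak heights and ratios are exact 95% intervals of tag counting alone. Those of shares are exact 95% binomial intervals that treat genes as independent draws, though the genes were chosen and some share a peak. Positions are on mm10, and a peak was placed by its midpoint. Neighbouring genes can share a peak. The list holds no expression values, so the liver label was not checked against marker genes.

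Complement and coagulation genes had MafG peaks close to their ends in a larger share than genes in general, and the distance to that background was largest, in proportion, within 1 kb. Counting both ends with 1 kb around each, 8 of 16 complement genes had a peak (50%, interval 24.7% to 75.3%) and 9 of 18 coagulation genes did (50%, interval 26% to 74%), against 24.5% of all protein-coding genes. That background lay just below both intervals. Within 10 kb of either end the counts were 14 of 16 (87.5%, interval 61.7% to 98.4%) and 15 of 18 (83.3%, interval 58.6% to 96.4%), against 69.2% of all genes, a value inside both intervals. A peak lay inside 12 of 16 complement genes (75%, interval 47.6% to 92.7%) and 9 of 18 coagulation genes (50%, interval 26% to 74%), against 50.5% of all genes, and the intervals of the lists overlapped in every window. The genes were chosen with earlier results known, so these shares are a description and were not tested. When only peaks with a fold of 20 or more over control in the authors' deposited table were counted, where 0 control tags stand as 0.5, the share within 1 kb fell to 4 of 16 complement genes (25%) and 7 of 18 coagulation genes (38.9%), against 15% of all genes. C8g, C5ar1, F12, Klkb1 and F13b had no listed peak within 10 kb.

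**Figure D1:**
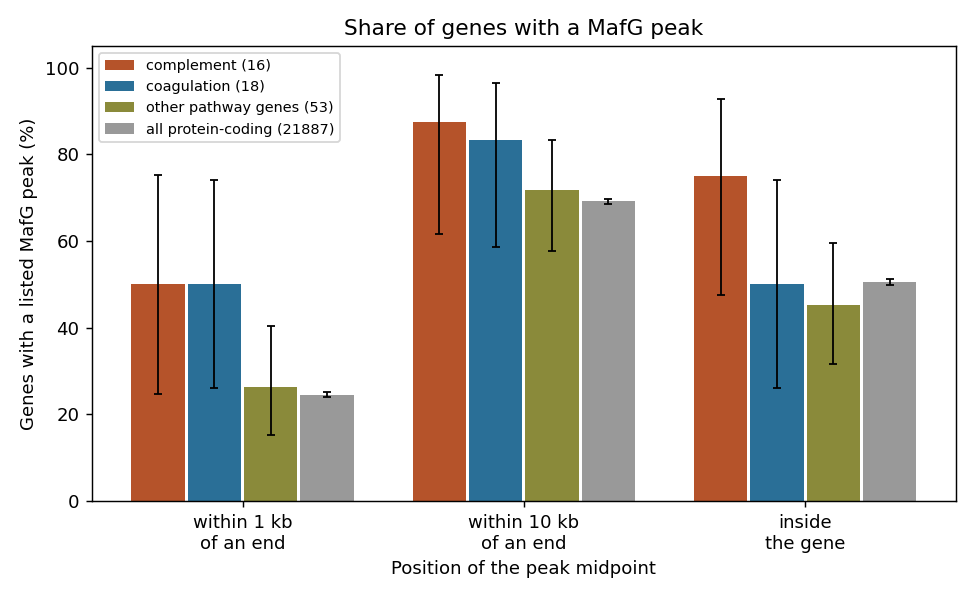
Share of genes (y axis, percent) with a listed MafG peak in each of 3 windows (x axis), for complement, coagulation, 53 other pathway genes and all protein-coding genes; bars are shares and lines are exact 95% binomial intervals. Within 1 kb both member lists stand at 50%, against 24.5% of all protein-coding genes.

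The lists held 80 distinct peaks, 42 at complement and 38 at coagulation genes, and 5 of them were shared by neighbouring members. Only 45 of the 80 had no other protein-coding gene within 10 kb, and not all such neighbours are named below. A complement gene had 2.75 peaks on average inside it or within 10 kb, a coagulation gene 2.28 and any protein-coding gene 2.36. By the median the genes were slightly longer than usual, at 22.5 kb for complement and 20.4 kb for coagulation against 17.2 kb for all genes. The longest had 77 kb and 75 kb, against 2390 kb among all genes. Over the whole span searched there were 0.549 peaks per 10 kb at complement genes and 0.517 at coagulation genes, against 0.347 for all genes. Those pooled values weigh long genes more. The median per gene was 0.649, 0.499 and 0.343 peaks per 10 kb in the same order. The peaks themselves were of ordinary height. Their median normalized tag count was 11.8 for complement and 11.6 for coagulation, against 12.3 for all peaks, and 11 of the 80 (13.8%) reached 30, against 18.7% of all peaks.

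With genes lacking a peak counted at 0, the median highest normalized tag count was 14.4 for complement and 19.1 for coagulation, against 13.7 for all protein-coding genes. This order of the lists depended on the window: with a flank of 20 kb the medians were 28.7 and 20.6. A highest peak of at least 20 was found in 5 of 16 complement genes (31.2%) and 8 of 18 coagulation genes (44.4%), against 39.3% of all genes. At 30 or more there were 5 of 16 complement genes (31.2%) and 6 of 18 coagulation genes (33.3%), against 28% of all genes. At 50 or more there were 1 of 16 complement genes (6.25%) and 3 of 18 coagulation genes (16.7%), against 17.1% of all genes. At 100 or more there were 0 complement genes and 2 coagulation genes (11.1%), Pros1 and Kng1, against 7.53% of all genes.

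**Figure D2:**
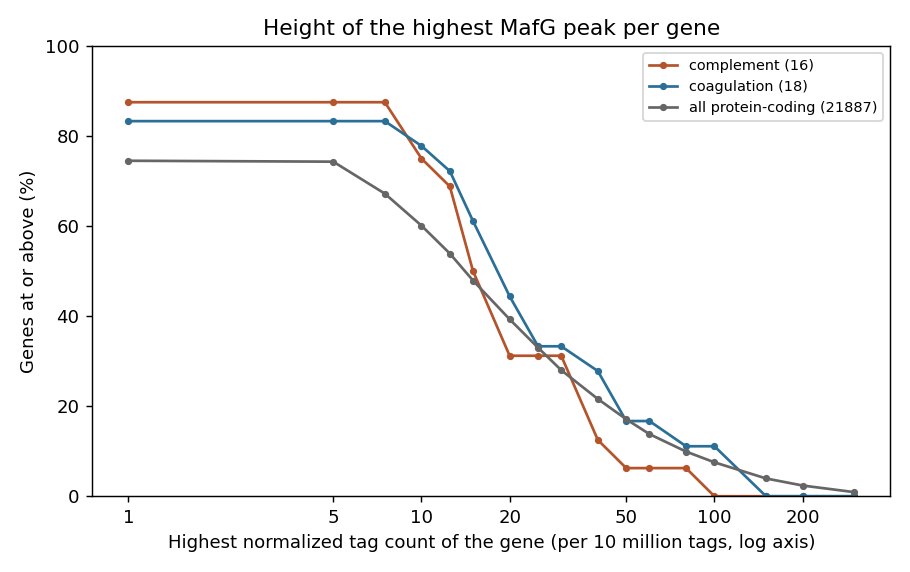
Percent of genes (y axis) whose highest normalized tag count reaches the height on the x axis (log axis), for complement, coagulation and all protein-coding genes; genes without a peak stay in the denominator. The member curves lie above that of all genes at heights up to 15. In the order given, the values at 20 are 31.2%, 44.4% and 39.3%, and at 30 they are 31.2%, 33.3% and 28%.

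RefSeq promoter entries gave a start for 27 of the 34 genes, and in 9 of them (33.3%, interval 16.5% to 54%) it was no more than 1 kb from a peak, against 21.7% of all protein-coding genes with a start, a value inside that interval. These were Masp2, C3, C6, C8a and C9 of complement, and F5, Fga, Cpb2 and Hgfac of coagulation. The opposite end of the gene had a peak within 1 kb in 6 of 27 (22.2%), against 7.52% of the 17492 protein-coding genes with a start. No interval was computed for this share, and the contrast was not tested. The 6 were C3, C8a, C8b, F2, F10 and F11, with peaks there from 5.88 in F2 to 62.7 in F10. The tallest peaks near a gene end of both lists, those of F10 and C3, lay at that opposite end.

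A peak overlapped the 250 bases before the start in 6 of 29 promoter entries (20.7%, interval 7.99% to 39.7%). The share was 11% of 21263 entries of all protein-coding genes, a value inside that interval. The sequences of these 6 promoters (RefSeq, GRCm38.p6, the assembly of mm10) are shown because they lie under the peaks nearest to the starts of these genes. Each runs 5′ to 3′ on the gene's strand and ends at the base before the start. Capitals mark a match to TGCTGA, an arm of the MAF recognition element, on either strand.
C3, chr17:57228137-57228386, minus strand: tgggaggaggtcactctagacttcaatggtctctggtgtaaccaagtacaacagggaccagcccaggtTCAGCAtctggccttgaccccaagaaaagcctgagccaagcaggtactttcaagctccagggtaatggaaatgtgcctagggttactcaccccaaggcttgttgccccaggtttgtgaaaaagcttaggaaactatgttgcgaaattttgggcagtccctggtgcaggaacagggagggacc
C6, chr15:4726960-4727209, plus strand: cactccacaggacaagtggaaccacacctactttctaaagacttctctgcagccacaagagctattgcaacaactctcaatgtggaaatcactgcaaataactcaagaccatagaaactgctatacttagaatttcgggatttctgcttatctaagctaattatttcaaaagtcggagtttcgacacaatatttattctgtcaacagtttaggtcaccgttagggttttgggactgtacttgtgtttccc
C9, chr15:6445096-6445345, plus strand: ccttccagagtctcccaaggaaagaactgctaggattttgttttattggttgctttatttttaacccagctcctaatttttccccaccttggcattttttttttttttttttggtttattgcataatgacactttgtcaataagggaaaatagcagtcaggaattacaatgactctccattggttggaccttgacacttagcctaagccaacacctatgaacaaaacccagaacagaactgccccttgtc
Cpb2, chr14:75242037-75242286, plus strand: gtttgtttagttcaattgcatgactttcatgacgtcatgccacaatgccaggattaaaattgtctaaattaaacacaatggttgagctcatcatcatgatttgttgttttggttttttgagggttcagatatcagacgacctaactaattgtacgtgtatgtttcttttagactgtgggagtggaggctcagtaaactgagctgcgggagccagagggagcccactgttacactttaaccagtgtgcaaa
Fga, chr3:83025903-83026152, plus strand: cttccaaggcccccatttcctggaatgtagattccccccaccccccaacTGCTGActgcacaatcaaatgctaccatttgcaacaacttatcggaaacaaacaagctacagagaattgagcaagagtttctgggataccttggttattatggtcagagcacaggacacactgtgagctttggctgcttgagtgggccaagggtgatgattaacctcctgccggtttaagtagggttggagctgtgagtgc
Hgfac, chr5:35041259-35041508, plus strand: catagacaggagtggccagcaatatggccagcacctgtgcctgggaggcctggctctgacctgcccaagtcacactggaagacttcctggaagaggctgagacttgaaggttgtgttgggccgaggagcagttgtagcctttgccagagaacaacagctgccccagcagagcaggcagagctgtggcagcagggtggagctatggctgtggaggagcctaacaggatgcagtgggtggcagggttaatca

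In these 6 promoters, TGCTGA was found in C3, from 182 to 177 bases before the start, and in Fga, from 201 to 196 bases before it. Both matches lay inside the listed peak. The letters TGANTCA (the AP-1 core), TGACNNNGC (the core of the antioxidant response element) and the joined run of TGCTGA and TGANTCA overlapping by TGA were in none of the 6, with both strands read. Over all 29 promoter entries of members, TGCTGA was in 6 (20.7%, interval 7.99% to 39.7%) and TGANTCA in 3 (10.3%, interval 2.19% to 27.4%). TGACNNNGC was in 1 (3.45%, interval 0.0873% to 17.8%) and the joined run in 0 (interval up to 11.9%). Over all 21263 entries the shares were 14.9%, 6.13%, 10.4% and 0.254% in the same order. Over the 2347 entries overlapped by a peak they were 19%, 5.33%, 15.2% and 0.724%. All these shares lay inside the intervals of the members. A match is a run of letters, not a shown binding site, and the promoters of C2, Cfb, Cfi, Kng1, Masp1 and Plg were not searched. The promoter of Proc was not searched either.

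**Figure D3:**
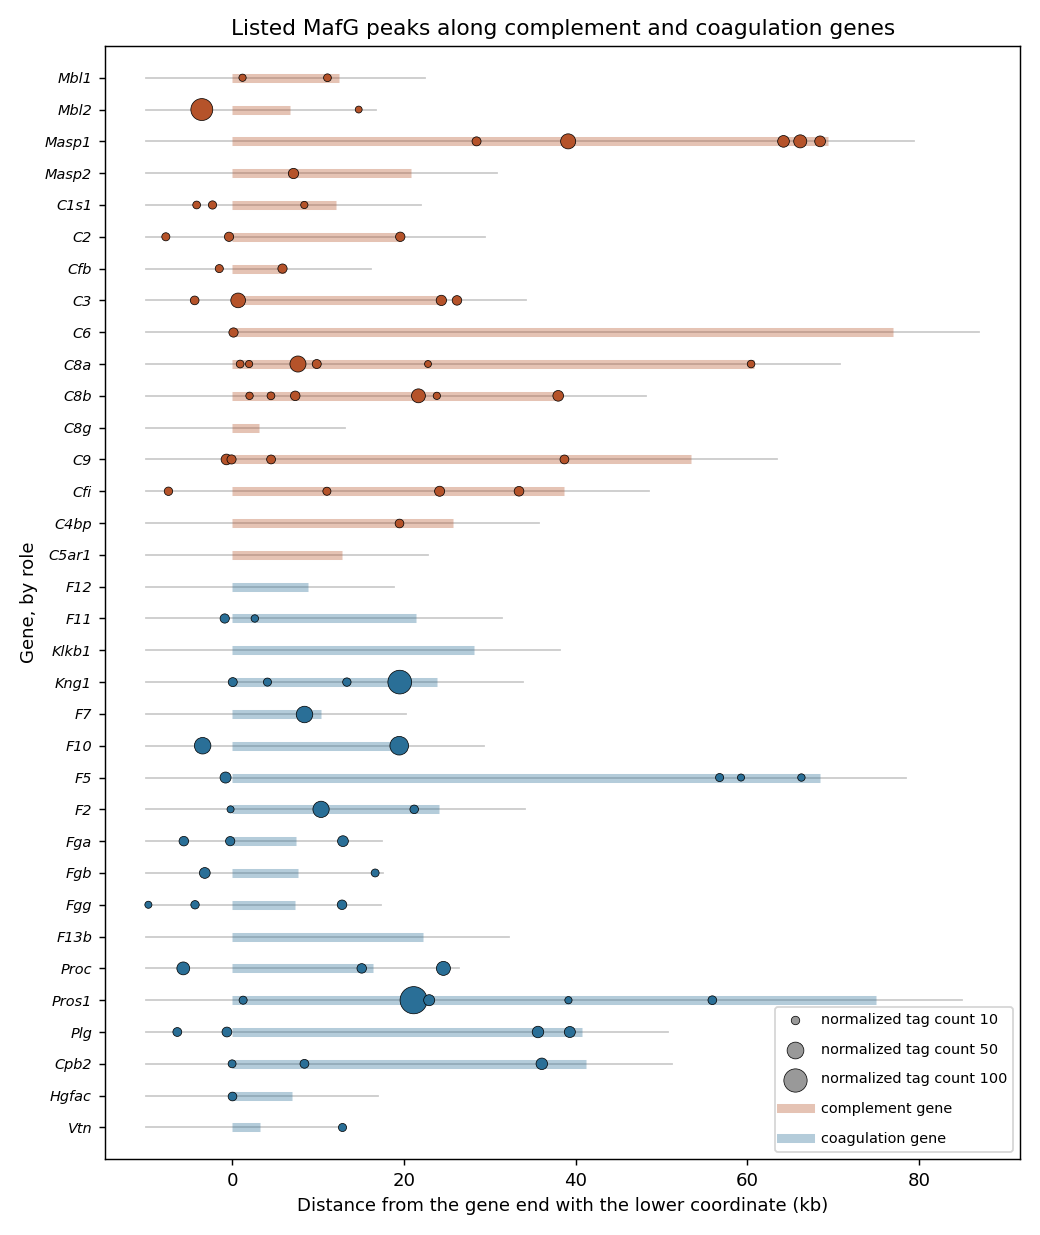
Listed MafG peaks (circles, area rising with the normalized tag count) along each member gene (thick bar) and its 10 kb flanks (thin line); the x axis is the distance in kb from the gene end with the lower coordinate. The largest circles lie inside Pros1 and Kng1 and outside Mbl2, each more than 1 kb from the ends of its gene.

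Among the initiators of complement, Mbl2 and Masp1 carried the tall peaks. Mbl2 encodes a mannose-binding lectin that recognises microbial sugars. Its highest peak stood 3558 bp upstream of the start at chr19:30229270-30229470, with a normalized tag count of 88.2 (75.8 to 102). The 180 BLRP-MafG tags there faced 2 control tags, a ratio of 75.9 (20.7 to 632), and only 4.4% of all peaks were as high. No other protein-coding gene lay within 10 kb of it. Mbl1, which encodes the other mannose-binding lectin of the mouse, had only low peaks of 6.37 (3.39 to 10.9) and 7.84 (4.48 to 12.7), both inside the gene. The intervals of the highest peaks of Mbl1 and Mbl2 did not overlap.

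The lectin-associated proteases differed as well. Masp1 held 5 peaks, all inside the gene. The highest, of 39.7 (31.5 to 49.3), lay 30317 bp from the nearer end at chr16:23490823-23491023, with 5 control tags and a ratio of 13.7 (5.62 to 43.2). Close to the end with the higher coordinate stood a row of 3, of 22.5 (16.5 to 30.1), 28.9 (22 to 37.3) and 18.6 (13.2 to 25.6). The last lay 969 bp inside that end at chr16:23520171-23520371 and had 2 control tags, a ratio of 16 (4.14 to 137). The 3 peaks are also within 10 kb of Rtp4. Masp2, whose product cleaves C4 and C2, had 1 peak of 16.7 (11.5 to 23.3) at chr4:148601610-148601810, against 1 control tag, a ratio of 28.7 (4.81 to 1170). It lay 7088 bp inside the gene as tabulated, but 834 bp upstream of the start in the RefSeq promoter entry.

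C1s1, which encodes the protease C1s of the classical pathway, had 3 low peaks inside or within 10 kb, the highest of 9.31 (5.61 to 14.5). That peak and another also lie within 10 kb of C1ra, the gene of its partner protease. A close copy, C1s2, had no listed peak, and reads of such copies could have been split by the mapping.

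All 3 members grouped under the C3 convertases carried a peak at an end, no more than 1 kb away. The share was 24.5% for protein-coding genes in general. C4b, a gene of the classical convertase outside the member list, had no peak that close. The only such peak of Cfb is shared with C2. C3, the central component that both convertases cleave, had 4 peaks. The highest lay 698 bp inside the end opposite to the start, at chr17:57204565-57204765, with a normalized tag count of 37.7 (29.8 to 47.2). With 4 control tags its ratio was 16.2 (6.09 to 61.1). At the other end a peak of 16.7 (11.5 to 23.3) was centred 198 bp upstream of the start, at chr17:57228234-57228434, with 2 control tags and a ratio of 14.3 (3.68 to 123). The interval of the peak at the start lay below that of the peak at the opposite end. Trip10 and Gpr108 also lie within 10 kb of the peak at the start.

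C2 and Cfb encode the protease subunits of the classical and the alternative convertase and lie next to each other. Both had a peak of 12.7 (8.32 to 18.7) at chr17:34862137-34862337, which lay 277 bp inside Cfb and 365 bp outside C2. The control held 0 tags, and against a floor of 3 control tags the ratio was 7.31 (exact lower limit 5.53). A second peak of C2, of 13.2 (8.72 to 19.3), lay 83 bp outside its other end at chr17:34882083-34882283, with 0 control tags and at 7.59 times that floor (exact lower limit 5.76). The intervals of these peaks overlapped widely.

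A peak stood less than 1 kb from an end in 4 of the 5 members of the membrane attack complex, against 24.5% of all protein-coding genes. Of these 4, only C6 and C9 kept such a peak at a fold of 20 or more over control, against 15% of all genes. In the other complement roles, 1 of 5 initiators, 0 of 2 regulators and not the receptor gene had a peak within 1 kb. C8g had none within 10 kb. C7 and Hc, genes of the same complex outside the member list, had none within 1 kb. C8a and C8b, the genes of the alpha and beta chains of C8, each held 6 peaks, the most of any member. The highest of C8a stood 7663 bp inside the gene at chr4:104823242-104823442, with a normalized tag count of 45.6 (36.8 to 55.8), 3 control tags and a ratio of 26.2 (8.68 to 129). Near its ends there were only low peaks, of 7.84 (4.48 to 12.7) at chr4:104816510-104816710, 931 bp inside, and of 7.35 (4.11 to 12.1) at chr4:104876024-104876224, 274 bp downstream of the start. Each of them had 1 control tag, with ratios of 13.5 (2.1 to 566) and 12.7 (1.95 to 533).

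The highest peak of C8b, of 33.3 (25.9 to 42.2), lay inside it at chr4:104787914-104788114, with 4 control tags and a ratio of 14.3 (5.35 to 54.1). Another, of 18.1 (12.8 to 25), lay 252 bp inside the end opposite to the start at chr4:104804196-104804396, with 3 control tags and a ratio of 10.4 (3.29 to 52.7). C8a is the next gene beyond this peak. The nearest listed peak to C8g, the gene of the third C8 chain, was one of 35.3 (27.6 to 44.4) at a distance of 13584 bp.

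C6 and C9 had peaks on their starts. The only peak of C6, a gene of 77 kb, was centred 27 bp upstream of the start at chr15:4727083-4727283, with a normalized tag count of 12.7 (8.32 to 18.7). There were 26 BLRP-MafG tags and 0 control tags, a ratio of 7.31 against the floor of 3 control tags (exact lower limit 5.53). C9, whose product forms the ring of the pore, had a pair of peaks before its start. The first, of 12.3 (7.93 to 18.1), was centred 73 bp upstream at chr15:6445173-6445373, against 1 control tag, a ratio of 21.1 (3.45 to 866). The second, of 18.1 (12.8 to 25), was centred 664 bp upstream at chr15:6444582-6444782, with 2 control tags and a ratio of 15.6 (4.03 to 134). Dab2 also lies within 10 kb of both.

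The regulators were Cfi and C4bp, and the receptor gene was C5ar1. Cfi, which encodes the protease that inactivates C3b and C4b, held 3 peaks inside it, the highest of 15.7 (10.7 to 22.1), and had another of 9.8 (5.99 to 15.1) outside. C4bp, the gene of a cofactor of that protease, held 1 of 10.8 (6.76 to 16.3). C5ar1, which encodes the receptor of the anaphylatoxin C5a and is known chiefly from myeloid cells, had none within 10 kb, and the nearest peak, of 9.8 (5.99 to 15.1), lay 13811 bp away inside Ccdc9 and Inafm1.

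In the contact system, a group of plasma proteins that starts clotting on surfaces, Kng1 differed from the other 3 genes. Kng1 encodes kininogen, the carrier of bradykinin. It held 4 peaks, and the highest reached a normalized tag count of 103.9 (90.4 to 119) at chr16:23077639-23077839, 4339 bp inside an end. It had 212 BLRP-MafG tags and 0 control tags, a ratio of 59.6 against the floor of 3 control tags (exact lower limit 48.1), and 3.41% of all peaks were as high. A further peak of 11.8 (7.54 to 17.5) lay 71 bp inside the end with the lower coordinate at chr16:23058191-23058391, with 2 control tags and a ratio of 10.1 (2.51 to 88.4). Kng2, a similar copy on the same chromosome, had 1 peak of 16.7 (11.5 to 23.3). The mapping could have split reads between the copies.

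The highest peak of F11, which encodes factor XI, was 12.7 (8.32 to 18.7) and lay 865 bp beyond the end opposite to its start, at chr8:45239694-45239894. With 0 control tags its ratio was 7.31 against the floor (exact lower limit 5.53). Klkb1, the neighbouring gene of plasma kallikrein, and F12, the gene of factor XII, had no peak within 10 kb. The nearest to F12, of 25 (18.6 to 32.9), missed that window by little, at 10389 bp, and the nearest to Klkb1, of 12.7 (8.32 to 18.7), lay 15069 bp away inside Cyp4v3.

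**Figure D4:**
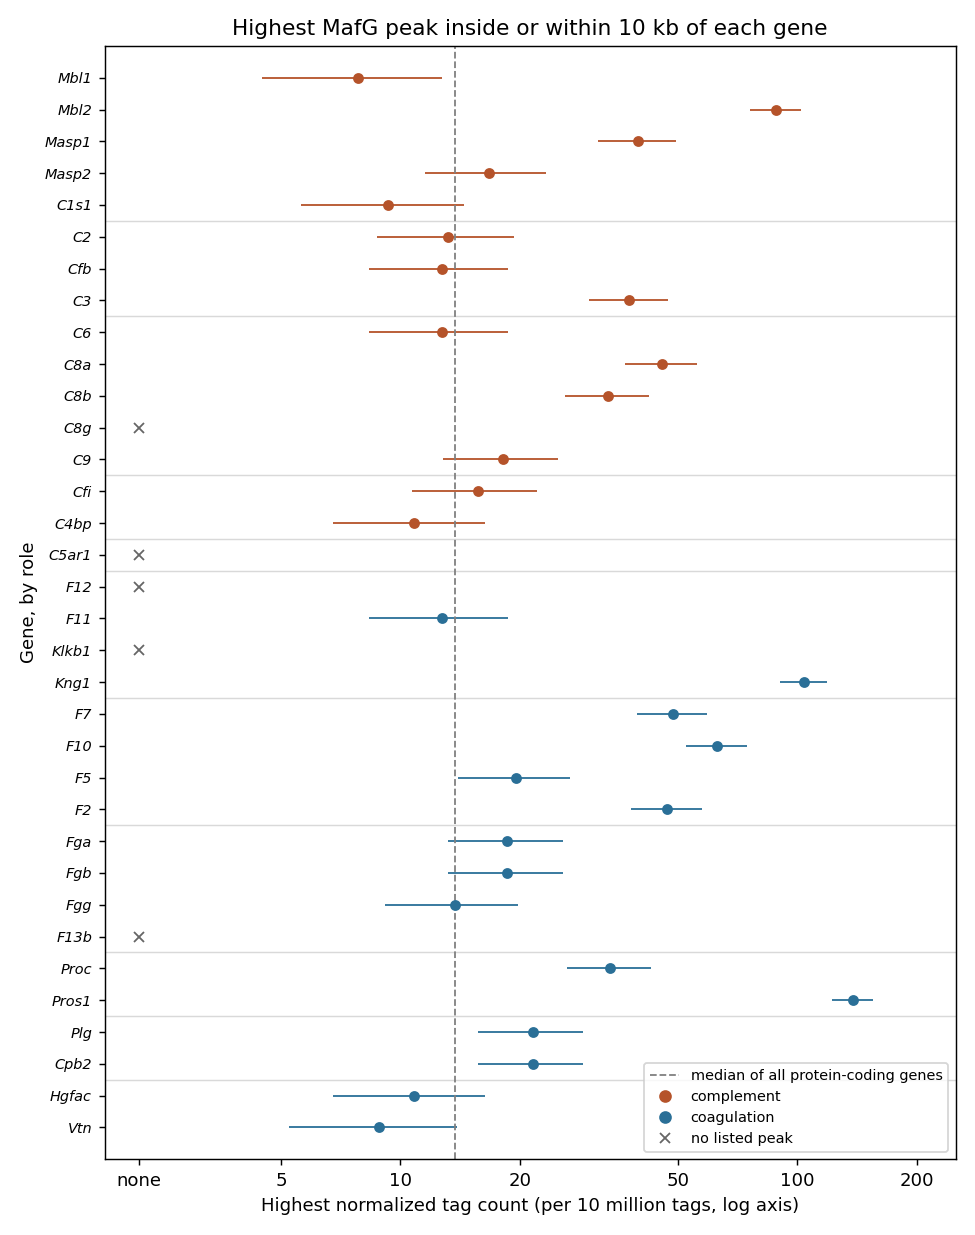
Highest normalized tag count (x axis, log axis) of each member (y axis, ordered by role) with exact 95% Poisson intervals; crosses mark the 5 genes with no listed peak within 10 kb and the dashed line the median of all protein-coding genes, 13.7. Pros1 at 138, Kng1 at 104 and Mbl2 at 88.2 stand above the rest.

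All 4 genes of the factors that lead to thrombin had a peak inside or within 10 kb, as did 74.5% of all protein-coding genes. F10 encodes factor X, on which the intrinsic and extrinsic routes meet. Its highest peak lay 91 bp outside the end opposite to the start, at chr8:13056667-13056867, with a normalized tag count of 62.7 (52.3 to 74.6), 4 control tags and a ratio of 27 (10.3 to 101). It is also within 10 kb of Proz, the gene of protein Z. F7, the gene of factor VII, held 1 peak of 48.5 (39.4 to 59.1) at chr8:13033768-13033968, with 4 control tags and a ratio of 20.9 (7.9 to 78.1). Because F10 starts just beyond F7, the same peak lies 3440 bp upstream of the start of F10.

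F2, which encodes prothrombin, held its highest peak deep inside the gene at chr2:91622651-91622851, 10354 bp from the nearer end. This peak had a normalized tag count of 47 (38.1 to 57.4), 2 control tags and a ratio of 40.5 (10.9 to 339). It is also within 10 kb of Ckap5. A low one of 5.88 (3.04 to 10.3) lay 186 bp outside the end opposite to the start, at chr2:91612111-91612311, with 0 control tags, or 3.37 times the floor (exact lower limit 2.34). F5, the gene of the cofactor factor V, had its highest peak 768 bp upstream of the start at chr1:164150967-164151167, with a normalized tag count of 19.6 (14 to 26.7). The control held 0 tags, and the ratio to the floor was 11.2 (exact lower limit 8.73). This peak is also within 10 kb of Selp. The 3 other peaks of F5 lay inside the gene at 8.82 or lower.

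The fibrinogen genes Fgg, Fga and Fgb, which lie in a row and encode the chains that thrombin turns into fibrin, held no peak inside any of them. Their highest peak, of 18.6 (13.2 to 25.6), lay between Fga and Fgb, 5432 bp from Fga and 3187 bp from Fgb, at chr3:83038959-83039159. One of 13.7 (9.12 to 19.8) lay between Fgg and Fga. The only peak within 1 kb of an end was centred 231 bp upstream of the start of Fga at chr3:83025822-83026022, with a normalized tag count of 12.7 (8.32 to 18.7), 1 control tag and a ratio of 21.9 (3.6 to 899). The intervals of these 3 peaks overlapped. F13b, which encodes the carrier subunit of the fibrin cross-linking factor XIII, had none within 10 kb.

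The tallest peak of all members stood in Pros1. This gene encodes protein S, the cofactor of the anticoagulant protease protein C. The peak lay 21141 bp inside the gene, downstream of the start, at chr16:62875348-62875548, with a normalized tag count of 137.7 (122 to 155). There were 281 BLRP-MafG tags and 3 control tags, a ratio of 79 (26.8 to 385), and 2.14% of all peaks were as high. A smaller peak of 19.6 (14 to 26.7) stood close beside it. The interval of the tallest peak did not overlap that of Kng1, the next in order, and those of Kng1 and Mbl2 overlapped.

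Proc, the gene of protein C itself, was flanked by peaks on both sides. One of 27.9 (21.2 to 36.2) lay 5694 bp outside at chr18:32117332-32117532, against 1 control tag, a ratio of 48.1 (8.29 to 1930). The highest, of 33.8 (26.3 to 42.8), lay 8163 bp outside the other end at chr18:32147633-32147833, with 4 control tags and a ratio of 14.6 (5.43 to 54.9). No other protein-coding gene lay within 10 kb of either. Their intervals overlapped, and both lay below the interval of Pros1.

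Both fibrinolysis genes had a highest peak of 21.6 (15.7 to 28.9). Each was also within 10 kb of another gene, Slc22a3 for Plg and Zc3h13 for Cpb2. In Plg, which encodes plasminogen, the highest peak lay inside at chr17:12414132-12414332. It had 44 BLRP-MafG and 0 control tags, a ratio of 12.4 against the floor (exact lower limit 9.65). A peak of 14.7 (9.92 to 21) lay 613 bp outside an end of Plg at chr17:12377896-12378096, with 2 control tags and a ratio of 12.7 (3.21 to 109). In Cpb2, which encodes a carboxypeptidase that slows fibrinolysis, the highest lay inside at chr14:75278255-75278455, against 1 control tag, a ratio of 37.1 (6.32 to 1500). It had 44 BLRP-MafG tags as well, and against the floor of 3 control tags its ratio was 12.4, equal to that of Plg. Ratios counted against 1 or 2 control tags thus cannot be compared with ratios against the floor. Cpb2 also had a low peak centred 7 bp upstream of its start at chr14:75242180-75242380, with a normalized tag count of 8.33 (4.85 to 13.3) and 0 control tags, a ratio of 4.78 against the floor (exact lower limit 3.48).

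Hgfac, which encodes the protease that activates hepatocyte growth factor, had a single peak, also centred 7 bp upstream of the start. It lay at chr5:35041402-35041602, with a normalized tag count of 10.8 (6.76 to 16.3) and 0 control tags, a ratio of 6.19 against the floor (exact lower limit 4.62). Vtn, the gene of vitronectin, had 1 low peak of 8.82 (5.23 to 13.9) 9586 bp outside it, which lies inside Tmem199. The peaks on the starts of Hgfac, Cpb2, C6 and C9 stood between 8.33 and 12.7, and their intervals overlapped.

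Peaks at these genes rose less above their surroundings than most peaks did. By the authors' deposited table, folds over the surrounding 10 kb had a median of 8.3 (quartiles 5.91 and 15.6) for the 80 member peaks, against 16.2 (quartiles 8.67 and 34.7) for all peaks and 13.2 for the 42421 peaks inside or within 10 kb of a protein-coding gene. In the same table, among peaks of 8.7 to 18.6 normalized tags, the range between the members' quartiles, the median was 8.22 for 41 member peaks, 13.7 for all peaks and 11.7 for peaks at genes. With a fold of at least 8 over the surroundings required, 10 of 16 complement genes (62.5%) and 12 of 18 coagulation genes (66.7%) had a peak within 10 kb, against 56.9% of all genes. The authors' median fold over control was close to that of all peaks, at 21.9 against 24.2. The caller required a fold of 4 over the surroundings, so weaker peaks are not in the list.

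**Figure D5:**
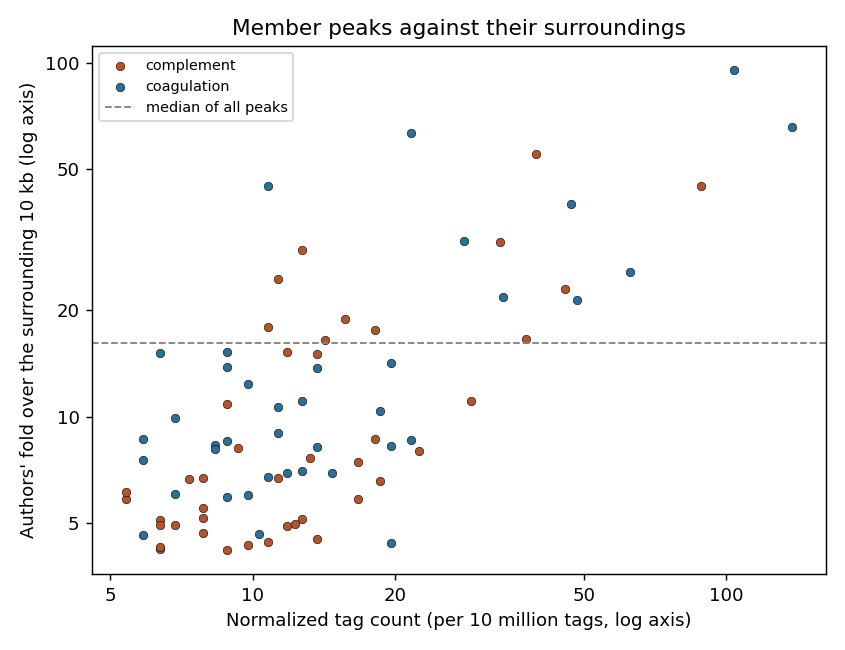
Authors' fold over the surrounding 10 kb (y axis, log axis) against the normalized tag count (x axis, log axis) for the 80 distinct member peaks; the dashed line is the median of all peaks, 16.2. Of the 80, 60 lie at or below the line, and those of Kng1, Pros1 and Mbl2 lie well above it.

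The other genes of both pathways, 53 in all, had peaks near their ends in shares close to those of all genes. A peak lay within 1 kb of an end in 14 of 53 (26.4%, interval 15.3% to 40.3%) and within 10 kb in 38 of 53 (71.7%, interval 57.7% to 83.2%), beside the shares of all genes given above. Their median highest normalized tag count was 17.6, against 13.7 for all genes. Of 25 other complement genes, 6 (24%) had a highest peak above the upper quartile of genes with a peak, 46.1, against 18.6% of all protein-coding genes. The tallest stood in Hc, which encodes C5, at 322 (298 to 348), 1745 bp inside an end, and C4b and Colec11 followed with 174 (157 to 194) and 117 (103 to 133). C1qa, C1qb and C1qc, which lie side by side and encode the chains of C1q, shared a peak of 84.8 (72.6 to 98.4), although C1q is known chiefly from macrophages. Of the receptor genes C3ar1, C5ar2, Itgam, Itgax and Vsig4, only Itgam had a peak inside or within 10 kb, of 41.7. Of all protein-coding genes, 74.5% had such a peak.

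Of 28 other coagulation genes, 5 (17.9%) passed the same limit, beside the same 18.6% of all genes. The tissue factor gene F3 had a peak of 258 (237 to 281), 9931 bp outside it. Vwf, which encodes von Willebrand factor of endothelial cells and platelets, held 9 peaks, the highest of 181 (163 to 200). Serpinc1, the antithrombin gene, had one of 62.2 (51.9 to 74), Serpinf2, the gene of the plasmin inhibitor, one of 59.3 (49.2 to 70.8), and Proz the peak of 62.7 that it shares with F10. The peaks of Hc, F3, Vwf and C4b were thus higher than that of Pros1, with intervals that did not overlap it.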

How the data were processed

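Livers were examined by ChIP-seq with 2 BLRP-MafG and 2 control libraries. Bowtie2, HOMER and build mm10 are named in the submitters' processing notes, without versions. Per the file headers, HOMER findPeaks called peaks of 200 bp at a fold of 10 and p of 1e-06 over control and a fold of 4 and p of 0.0001 over the surrounding 10 kb, considering at most 1 tag per bp; the libraries behind each tag collection are not named. The deposited signal is the BLRP-MafG tag count scaled by the authors to 10000000 tags; the deposited control signal is unscaled, with 0.5 for 0 tags. Fold values were deposited as linear ratios. The deposited p-values and score, from the peak caller, weigh tags, not animals, and were not used here.

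Multiplied back by the header's total, 100% of the deposited signal values came within 0.102 of a whole tag. At the median a peak had 25 BLRP-MafG and 1 control tags, so single ratios are known only roughly. Intervals at 95% were exact Poisson (tag counts), conditional binomial (ratios) and Clopper-Pearson (shares), with SciPy 1.17.1; a ratio against 0 control tags used a floor of 3. Those of tag counts and ratios cover counting error only, and those of shares treat genes as independent draws.

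Genes came from RefSeq GRCm38.p6 (21 placed chromosomes); all 87 listed symbols matched. Starts came from RefSeq promoter entries, so strand was not known for 7 members. Counting was tested on simulated peaks. The members and lists were chosen with earlier results of these data known. All 34 members are named. Full values are given for members whose highest peak reached 21.6, the median of genes with a peak, and for every peak within 1 kb of an end. Other pathway genes are named where they exceeded the upper quartile, 46.1; C3ar1, C5ar2, Itgam, Itgax and Vsig4 were named after their values were seen. No test was run: the list holds no value per library. Genome sequence outside the RefSeq promoter entries was not used here.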

Additional observations from a re-analysis of the deposited data

How the results depend on the processing

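Of 78 alternative values for the member lists, 59 stayed close to the reported ones (counts, means and the difference of medians within 1.5 times, medians within their counting interval, the difference of shares within its wide 95% interval), 16 moved and 3 changed sign. The difference of complement minus coagulation in the share with a peak within 10 kb, 4.17 percentage points, became -9.03 with a window of 5 kb and -4.17 with a fold of at least 8 over the surroundings. It was 0 with a window of 50 kb and 9.72 with each peak given to 1 gene, values counted as close only because of that width. The difference of the median highest tag counts, -4.65, became 8.1 with a window of 20 kb, -1.7 with 5 kb, -1.45 with 50 kb, -7.35 with a fold of at least 8 over the surroundings and -2.45 with gene ends alone. So no order of the lists held in every setting. Wider windows raised the medians of complement to 28.7 (20 kb) and 42.7 (50 kb) and of coagulation to 44.1 (50 kb), and the mean number of peaks per gene at 50 kb to 6.31 and 5.61, with all protein-coding genes at 33.8 and 5.24. The mean for complement fell to 1.5 at a control fold of 20 or more, 1.12 with a fold of at least 8 over the surroundings and 1.69 with a normalized tag count of at least 10, where coagulation had 1.5. Within 1 kb, that stricter control limit left 4 complement genes. With the start alone there were 5 complement and 4 coagulation genes, of the 12 and 15 with a known start; fewer genes and 1 end are counted there. In the other settings the cause was not tested. No paired analysis was possible because the list holds no value per library, and for the same reason no replicate could be left out. Depth limits single peaks: low peaks with 0 or 1 control tags have ratios known only within wide bounds.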
